A study of Mus musculus with 7 samples.

Results

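The genes described here are 10 genes of autophagy and the lysosome, taken by symbol from a table of 24319 gene rows: Sqstm1, Map1lc3a, Map1lc3b, Gabarap, Gabarapl2, Becn1, Atg5, Atg7, Lamp1 and Lamp2. All 10 were found, and all 10 were among the 12272 genes tested, which had at least 1 FPKM in at least 2 libraries. By definition, FPKM are fragments scaled to transcript length and to the mapped total. Whether these values were scaled further between libraries is not given in the sources used here. RNA was sequenced from wild-type B6D2F1 mouse embryos made by nuclear transfer, in which a cumulus cell was injected into an enucleated oocyte. All groups carried injected Kdm4a mRNA, which encodes a histone demethylase, so no group without it was analysed here. CROC+K+M (2 libraries) came from vitrified and warmed oocytes and its embryos received 10 µM melatonin; CROC+K (3 libraries) came from vitrified and warmed oocytes without melatonin; FOC+K (2 libraries) came from fresh oocytes without melatonin. Each library is a pool of 50 to 100 embryos labelled as 2-cell stage, while the treatment protocol shared by all libraries names blastocysts too.

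Autophagy encloses cytoplasm in a double membrane, the autophagosome, and delivers it to the lysosome for digestion. The Becn1 protein, Beclin 1, belongs to the lipid kinase complex that starts the membrane, Atg7 is the E1-like enzyme and Atg5 part of the conjugate that attach LC3 and GABARAP proteins to membrane lipid, and Sqstm1 (p62) is a receptor that brings ubiquitinated cargo to LC3. Lamp1 and Lamp2 are the main glycoproteins of the lysosomal membrane. In fertilized mouse embryos autophagy is switched on soon after fertilization and is needed for preimplantation development, where it takes part in the breakdown of maternal proteins.

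The libraries differed in ways that touch these genes. FPKM summed to between 552356 and 1017995 per library, the highest being CROC+K+M replicate 1, and the number of fragments behind the values is not given in the sources used here. Kdm4a was at 2797 and 689 FPKM in CROC+K+M replicates 1 and 2, at 497, 4051 and 4949 in CROC+K replicates 1 to 3, and at 2014 and 816 in FOC+K. Of 8 oocyte markers, 7 or 8 had at least 1 FPKM in every library. Of 7 listed markers of the 2-cell stage, Tcstv1 and Tcstv3 were listed at 0 throughout, and the sum of all 7 ran between 44.5 and 545 FPKM. The cumulus cell markers summed to between 11.0 and 17.7 FPKM, and 3 or 4 of the 12 had at least 1 FPKM in each library. Amhr2 ran from 2.70 to 9.46 FPKM and Tnfaip6 from 2.26 to 7.38, while Ptx3 was at 0 and Fshr at most 0.382. All 12 trophectoderm markers, which mark the outer cell layer of the blastocyst, were highest in CROC+K+M replicate 1, where they summed to 27250 FPKM, against 47.8 in CROC+K+M replicate 2, 46.7 to 125 in CROC+K and 59.2 and 92.2 in FOC+K. In that library the 2-cell markers summed to 233 FPKM and the oocyte markers to 3494, against 44.5 and 3665 in CROC+K+M replicate 2. Because its trophectoderm markers go against its 2-cell label, log2 changes and list counts that use CROC+K+M are given with and without it. Counts of groups that did not overlap use all libraries. CROC+K+M replicate 1 correlated with the rest at 0.851 to 0.875 across genes, against 0.908 to 0.974 among the other 6.

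None of the 10 genes passed an adjusted p of 0.05 in any of the 3 comparisons in limma. The same was true of all 12272 genes (0% called in each comparison). Below, the melatonin comparison sets CROC+K+M against CROC+K, the combined comparison sets CROC+K+M against FOC+K, and the vitrification comparison sets CROC+K against FOC+K, with the first-named group on top of each fold change. At an unadjusted p under 0.05 limma gave 1281 genes (10.4%) in the melatonin comparison, 793 (6.46%) in the combined one and 269 (2.19%) in the vitrification one. Of the 10 genes, 1 was among them, Map1lc3b, higher in the combined comparison beside 4.46% of all genes in that direction. Without CROC+K+M replicate 1, Atg5 and Map1lc3a were below that p in the melatonin comparison, both lower, 2 of 10 beside 8.38% of all genes, or 4.38% lower. In the combined comparison it was then Map1lc3a alone, lower, beside 5.15% of all genes, or 2.53% lower. The 3 comparisons share libraries pairwise, so their values are not independent of one another. Fold changes below are on the log2(FPKM + 1) scale with limma's standard error (SE).

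**Figure D1:**
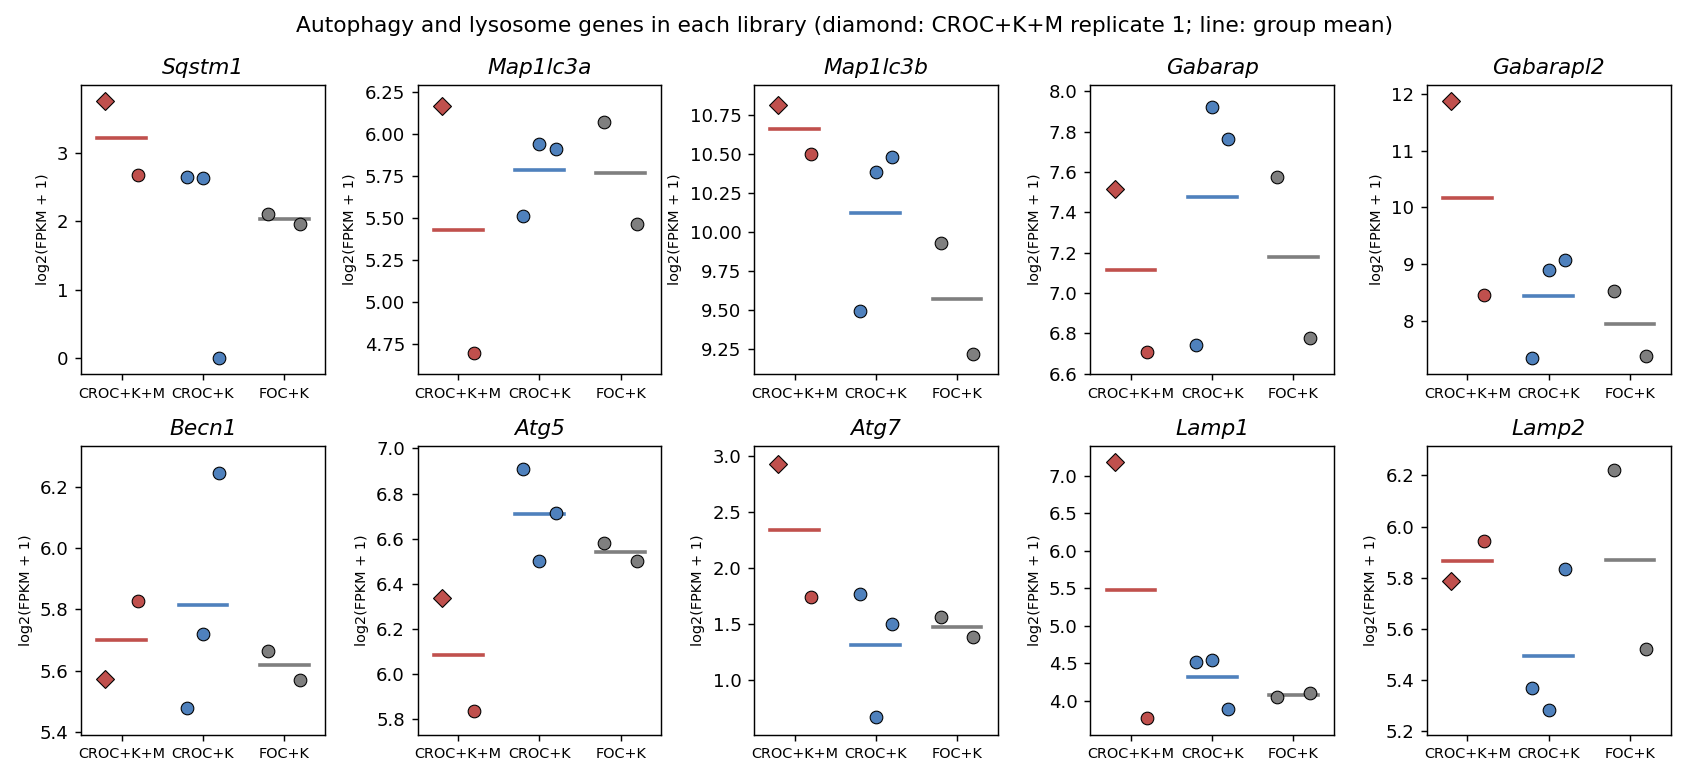
Level of each of the 10 genes in every library, as log2(FPKM + 1), with the groups CROC+K+M, CROC+K and FOC+K from left to right; points are libraries, the diamond is CROC+K+M replicate 1, and lines are group means (none for Sqstm1 in CROC+K, where 1 library is listed at 0). The diamond stands far above the other points for Gabarapl2 and Lamp1, and both CROC+K+M points lie below the rest for Atg5.

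The receptor gene Sqstm1 was low. It was at 12.5 and 5.40 FPKM in CROC+K+M replicates 1 and 2, at 5.28, 5.21 and 0 in CROC+K replicates 1 to 3, and at 3.297 and 2.885 in FOC+K. Both CROC+K+M values lay above all other libraries, though replicate 2 exceeded the highest CROC+K library by little. CROC+K replicate 3 listed 44 genes at 0 that had at least 1 FPKM in each other library. Among them was Eif3d, a subunit of a translation initiation factor. CROC+K replicate 2 listed 36 genes in this way and the other libraries 2 to 8. The 0 for Sqstm1 in replicate 3 can thus be a failed estimate, and no group mean is given. The log2 change was 1.46 ± 0.82 (SE) in the melatonin comparison (limma, adjusted p = 0.557), 1.19 ± 0.89 in the combined comparison (adjusted p = 0.816) and -0.27 ± 0.82 in the vitrification comparison (adjusted p = 0.9996). Leaving out CROC+K replicate 3 gave 0.58 in the melatonin comparison, and turned the change in the vitrification comparison to 0.61. With CROC+K+M replicate 1 left out, the melatonin comparison gave 0.92 ± 1.03 and the combined one 0.65 ± 1.09. The Mrnip gene overlaps Sqstm1 on the opposite strand and holds 15.5% of its 50-base stretches in the GENCODE M21 annotation. Under its older symbol 3010026O09Rik, Mrnip was at 32.9 and 35.7 FPKM in CROC+K+M, at 38.1, 10.9 and 17.7 in CROC+K, and at 17.2 and 27.7 in FOC+K. It was above Sqstm1 in every library, and its part in the Sqstm1 values was not tested. Whether the table used strand is not given in the sources used here, so reads of such overlaps cannot be told apart.

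Across the 7 libraries the tested genes most like Sqstm1 were Cpt1a (Pearson r = 0.983), which encodes the gatekeeper of mitochondrial fatty acid uptake, Smc1a (0.977), a cohesin subunit gene, and Mcfd2 (0.972). Over the 6 libraries without CROC+K+M replicate 1 they were Ldb1 (0.989), Ltb (0.988) and Smc1a (0.987). Like Sqstm1, each of these genes had its lowest value among the libraries used in CROC+K replicate 3. The r values thus rest in part on the 0 listed there for Sqstm1, which can be a failed estimate. With so few libraries and 12272 genes to choose from, such values are a description of these libraries.

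Sequences upstream of the start site are shown for the gene that was most abundant in 6 of the 7 libraries and for the pair that stood furthest above the rest in CROC+K+M replicate 1. Promoters of 300 bases (250 before and 50 after the RefSeq start, build GRCm38.p6) were found for 8 of the 10 genes, all but Map1lc3a and Becn1. They were searched on both strands for CACGTG, the E-box at the core of the CLEAR element that the lysosomal regulator TFEB binds, and for TGACNNNGC, the core of the antioxidant response element; the capitals below mark these matches.
Map1lc3b (chr8:121590188-121590487, plus strand): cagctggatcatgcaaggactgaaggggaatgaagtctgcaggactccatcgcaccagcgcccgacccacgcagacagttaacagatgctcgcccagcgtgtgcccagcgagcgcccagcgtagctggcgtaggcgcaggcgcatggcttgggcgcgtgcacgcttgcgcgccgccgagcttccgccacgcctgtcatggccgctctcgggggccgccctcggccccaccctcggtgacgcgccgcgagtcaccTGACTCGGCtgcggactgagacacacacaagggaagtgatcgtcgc
Gabarapl2 (chr8:111940453-111940752, plus strand): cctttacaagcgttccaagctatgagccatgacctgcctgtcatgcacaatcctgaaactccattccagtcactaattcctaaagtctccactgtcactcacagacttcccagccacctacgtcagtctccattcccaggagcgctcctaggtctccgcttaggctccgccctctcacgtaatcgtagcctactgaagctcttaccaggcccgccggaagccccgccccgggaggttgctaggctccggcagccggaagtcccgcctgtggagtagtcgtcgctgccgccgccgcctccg
Lamp1 (chr8:13158911-13159210, plus strand): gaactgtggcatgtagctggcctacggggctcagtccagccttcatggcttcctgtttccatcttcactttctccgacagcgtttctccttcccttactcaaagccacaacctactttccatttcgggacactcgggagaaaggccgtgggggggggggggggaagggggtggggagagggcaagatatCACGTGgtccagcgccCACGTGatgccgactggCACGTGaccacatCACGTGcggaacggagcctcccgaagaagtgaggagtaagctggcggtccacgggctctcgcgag
CACGTG stood 4 times in the Lamp1 promoter and once each in those of Atg7 and Atg5, and in 7.15% of all 32851 promoters of this length. TGACNNNGC stood in that of Map1lc3b alone among the 8, and in 12.4% of all. The Gabarapl2 promoter held neither in this window. These matches describe letters only.

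Among the membrane-conjugated proteins, Map1lc3b, the usual marker of autophagosomes, was the most abundant in 6 libraries. It was at 1797 and 1448 FPKM in CROC+K+M, at 719, 1336 and 1427 in CROC+K, and at 972 and 595 in FOC+K. Its mean over the libraries was at or above that of 99.4% of the tested genes. Both CROC+K+M libraries were above all 3 of CROC+K and both of FOC+K, while CROC+K replicate 1 lay between the FOC+K libraries. The group means were 1622 ± 247 (SD, n = 2), 1161 ± 385 (SD, n = 3) and 783 ± 267 (SD, n = 2) in CROC+K+M, CROC+K and FOC+K. In the combined comparison the log2 change was 1.08 ± 0.43 (SE), with an unadjusted p of 0.0372 and an adjusted p of 0.757 in limma. Without CROC+K+M replicate 1 it was 0.93 ± 0.53. With equal FPKM sums it was 0.49, where the median of all genes lay at -0.44, and after quantile normalization it was 0.29. It was 0.14 (unadjusted p = 0.767 in limma) in a fit with a term for the libraries high or low in Rn45s, the ribosomal RNA precursor. Only CROC+K held libraries on both sides of that split, so the term rests on CROC+K replicate 1 against replicates 2 and 3. The change was 0.54 ± 0.39 in the melatonin comparison, or 0.38 ± 0.50 without CROC+K+M replicate 1, and 0.55 ± 0.39 in the vitrification comparison. Leaving out 1 library at a time moved it between 0.22 and 0.72 in the melatonin comparison, the lowest without CROC+K replicate 1. The vitrification comparison ran from 0.19 without FOC+K replicate 2 to 0.90 without FOC+K replicate 1. Within groups, Map1lc3b lay in the order of Kdm4a in all 5 pairs of libraries, as did Gabarapl2 and 7.12% of the tested genes; the part of Kdm4a in these levels was not tested. This order was looked for after the values were seen. Other annotated genes share 6.0% of the 50-base stretches of Map1lc3b. Zcchc14, at 3.47 to 6.03 FPKM, overlaps it on the opposite strand. The part of these genes in the Map1lc3b values was not tested.

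Gabarapl2, also called GATE-16, showed the widest range. It stood at 3776 and 349 FPKM in CROC+K+M replicates 1 and 2, at 160.4, 473 and 539 in CROC+K replicates 1 to 3, and at 365 and 166 in FOC+K. CROC+K+M replicate 1 was thus 7.00 times the next highest library, while replicate 2 lay inside the range of both other groups. The log2 change was 1.73 ± 0.98 (SE) in the melatonin comparison (limma, adjusted p = 0.562), or 0.02 ± 0.74 with CROC+K+M replicate 1 left out. Against FOC+K the change of CROC+K+M was 2.22 ± 1.08 (adjusted p = 0.757), or 0.50 ± 0.79 without that library. In CROC+K+M replicate 1 the trophectoderm markers were high as well, as given above, and their part in the Gabarapl2 level was not tested. In a pool of whole embryos, more cells of a type and more RNA per cell cannot be told apart. Gabarapl2 passed, with replicate 2 left out in place of replicate 1, against CROC+K (3.45, adjusted p = 0.0487) and against FOC+K (3.94, adjusted p = 0.0419), calls that rest on that 1 library. In the vitrification comparison the change was 0.48 ± 0.98. Other annotated genes, Gm3724 among them, share 12.2% of the 50-base stretches of Gabarapl2. How reads of such stretches were assigned is not given in the sources used here, so their part in its level is not known.

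Gabarap, the founding member of its subfamily, stayed within a 2.33-fold range. Its FPKM was 182 and 104 in CROC+K+M, 106, 241 and 216 in CROC+K, and 190.1 and 109 in FOC+K. Each group held a library close to the lowest value, and all 3 groups overlapped. The log2 change was -0.36 ± 0.46 (SE) in the melatonin comparison (limma, adjusted p = 0.80), -0.07 ± 0.50 in the combined comparison and 0.30 ± 0.46 in the vitrification comparison. Leaving out CROC+K+M replicate 1 gave -0.77 ± 0.54 in the melatonin comparison and -0.47 ± 0.57 in the combined one.

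Map1lc3a, the second LC3 gene, was far below Map1lc3b. It was at 70.9 and 24.9 FPKM in CROC+K+M replicates 1 and 2, at 44.6, 60.4 and 59.1 in CROC+K, and at 66.1 and 43.1 in FOC+K. The highest and the lowest of the 7 libraries were thus both in CROC+K+M. The log2 change in the melatonin comparison was -0.36 ± 0.45 (SE), with an adjusted p of 0.802 in limma. Leaving out CROC+K+M replicate 1, it was -1.09 ± 0.37 (unadjusted p = 0.0211, adjusted p = 0.558 in limma), where the lone replicate 2 is assumed to vary like the other groups. In the combined comparison that fit gave -1.07 ± 0.39 (adjusted p = 0.936), where all libraries gave -0.34 ± 0.50. The vitrification comparison gave 0.02 ± 0.45.

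As shares of the summed FPKM of all 5 LC3 and GABARAP genes, with Gabarapl1 added from a second list, CROC+K+M replicate 1 had a makeup of its own. Map1lc3b held 30.8% and 75.2% in the CROC+K+M libraries, 63.3% to 69.7% in CROC+K, and 61.0% and 65.1% in FOC+K. Gabarapl2 held 64.8% and 18.1% in the CROC+K+M libraries, 15.5% to 24.0% in CROC+K, and 22.9% and 18.1% in FOC+K. Map1lc3a held 1.22% and 1.29% in CROC+K+M, below the 2.64% to 4.32% in CROC+K and the 4.15% and 4.72% in FOC+K. Gabarap likewise held 3.12% and 5.38% in CROC+K+M, against 9.64% to 11.4% in CROC+K and 11.9% in each FOC+K library. Both shares were therefore lower in the 2 CROC+K+M libraries than in all 5 others, with or without replicate 1. The levels themselves were not low in replicate 1, where Map1lc3a at 70.9 FPKM was the highest of the 7 libraries. Gabarap at 182 FPKM was their median, and the shares there are of a sum of 5827 FPKM. Both shares were read after the values were seen and are given with no test. Gabarapl1 held at most 0.202%.

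**Figure D2:**
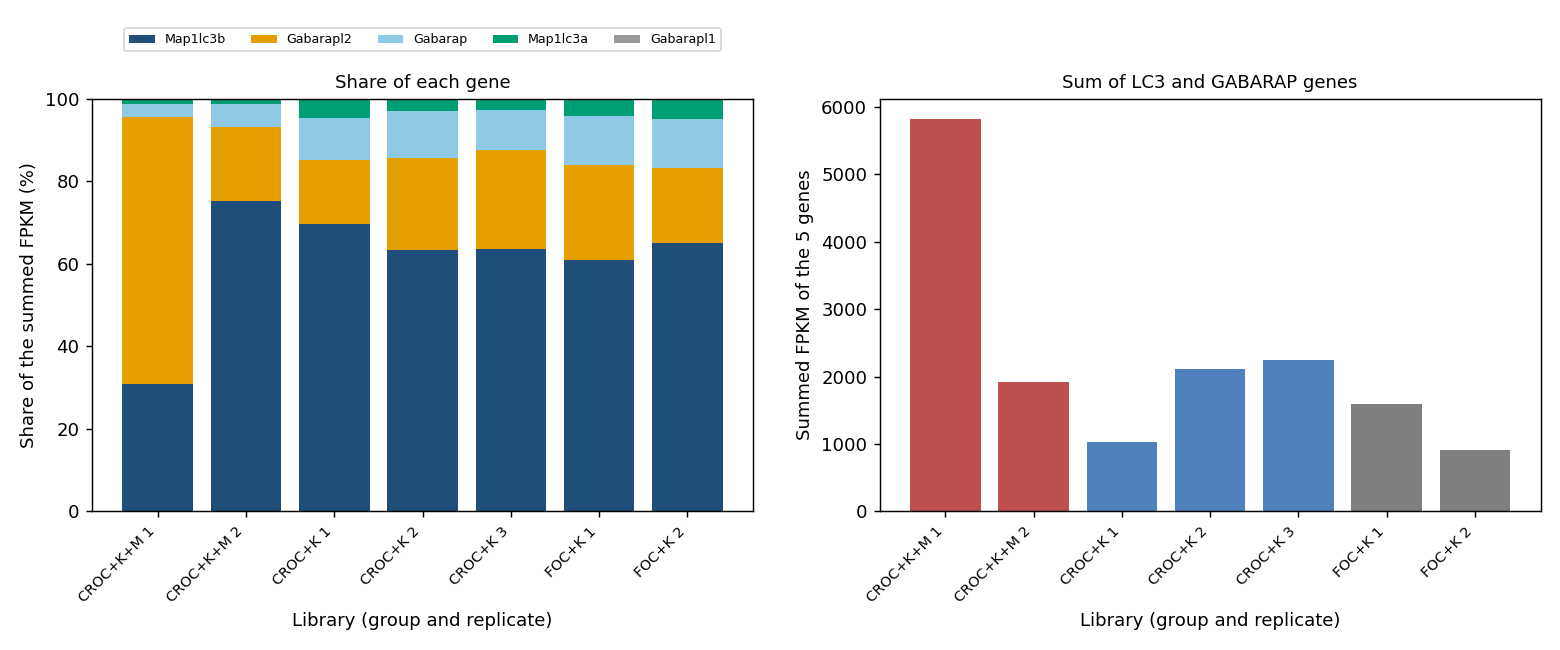
Left, share in percent of each gene in the summed FPKM of Map1lc3a, Map1lc3b, Gabarap, Gabarapl1 and Gabarapl2 for each library; right, that sum in FPKM, coloured by group, in the order CROC+K+M, CROC+K, FOC+K. Map1lc3b takes the largest share in 6 libraries and Gabarapl2 takes 64.8% in CROC+K+M replicate 1, where the sum reaches 5827 FPKM against 913 to 2242 in the others.

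Becn1 varied least among the 10 genes. It was at 46.6 and 55.8 FPKM in CROC+K+M, at 43.6, 51.6 and 75.0 in CROC+K, and at 49.7 and 46.5 in FOC+K, a 1.72-fold range. Apart from CROC+K replicate 3 all libraries lay between 43.6 and 55.8. Its log2 change was -0.11 ± 0.30 (SE) in the melatonin comparison, 0.08 ± 0.33 in the combined comparison and 0.20 ± 0.30 in the vitrification comparison, with adjusted p = 0.913, 0.971 and 0.9996 in limma. The first 2 were 0.01 ± 0.37 and 0.21 ± 0.39 without CROC+K+M replicate 1. The Cntd1 gene overlaps it on the opposite strand and holds 36.8% of its 50-base stretches.

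Atg5 was lower in both melatonin libraries than in each of the other 5. It was at 79.9 and 56.0 FPKM in CROC+K+M, at 119, 89.5 and 104 in CROC+K, and at 94.8 and 89.5 in FOC+K. The means were 68.0 ± 16.9 (SD, n = 2), 104 ± 14.8 (SD, n = 3) and 92.2 ± 3.72 (SD, n = 2). The log2 change was -0.62 ± 0.27 (SE) in the melatonin comparison (limma, unadjusted p = 0.0546, adjusted p = 0.483) and -0.46 ± 0.30 in the combined comparison (adjusted p = 0.805), or -0.71 ± 0.32 without CROC+K+M replicate 1. The melatonin comparison was -0.87 ± 0.30 without that library (unadjusted p = 0.0229, adjusted p = 0.558 in limma). Its size rests more on CROC+K+M replicate 2: without replicate 2 it was -0.37 in the melatonin comparison (unadjusted p = 0.259 in limma) and -0.20 in the combined one. With all libraries, under the other scalings, filter, pseudocount, block and library split, the melatonin comparison lay between -0.87 and -0.52. There the block and the split gave the same changes as leaving out CROC+K replicate 3 and CROC+K replicate 1. With the Rn45s library split as a term the combined comparison was -0.15. In the vitrification comparison the change was 0.17 ± 0.27.

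Atg7 was the lowest of the 10 genes by its mean. It was at 6.61 and 2.34 FPKM in CROC+K+M, at 2.39, 0.591 and 1.83 in CROC+K, and at 1.95 and 1.61 in FOC+K. CROC+K+M replicate 1 was 2.76 times the next highest library, and replicate 2 was below CROC+K replicate 1. The log2 change in the melatonin comparison was 1.02 ± 0.50 (SE, limma, adjusted p = 0.513), or 0.43 ± 0.54 without CROC+K+M replicate 1. It was 0.86 ± 0.55 in the combined comparison, or 0.27 ± 0.57 without that library, and -0.16 ± 0.50 in the vitrification comparison. Per kilobase, Atg5 was thus 12.1 and 24.0 times as abundant as Atg7 in CROC+K+M, 49.8 to 151 times in CROC+K, and 48.7 and 55.6 times in FOC+K. That ratio was lower in both CROC+K+M libraries than in the other 5, a description with no test.

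The lysosomal membrane genes differed from each other. Lamp1 was at 144 and 12.6 FPKM in CROC+K+M replicates 1 and 2, at 21.9, 22.3 and 13.9 in CROC+K, and at 15.6 and 16.2 in FOC+K. The CROC+K+M group thus held the highest and the lowest library, and replicate 1 was 6.46 times the next highest. Its log2 change in the melatonin comparison was 1.16 ± 0.86 (SE, limma, adjusted p = 0.648) with all libraries and -0.55 ± 0.38 without CROC+K+M replicate 1. Against FOC+K it was 1.40 ± 0.94, or -0.31 ± 0.41 without that library, and the vitrification comparison gave 0.24 ± 0.86. On replicate 1 alone, without replicate 2, the changes of 2.87 and 3.11 passed (adjusted p = 0.00939 and 0.0106 in limma). Grtp1, which overlaps Lamp1 on the opposite strand and holds 5.9% of its 50-base stretches, was at 45.9 FPKM in CROC+K+M replicate 1 and at most 0.457 elsewhere; its part in the Lamp1 value was not tested, nor was that of the trophectoderm markers.

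Lamp2 was at 54.2 and 60.6 FPKM in CROC+K+M, at 40.4, 37.9 and 56.1 in CROC+K, and at 73.5 and 44.9 in FOC+K. Its groups overlapped, and the log2 change was 0.37 ± 0.32 (SE) in the melatonin comparison, -0.0046 ± 0.35 in the combined comparison and -0.37 ± 0.32 in the vitrification comparison, with adjusted p = 0.697, 0.999 and 0.9996 in limma. Leaving out CROC+K+M replicate 1, the first 2 were 0.45 ± 0.40 and 0.07 ± 0.42. Lamp2 exceeded Lamp1 by 1.70-fold to 4.81-fold in 6 libraries, and in CROC+K+M replicate 1 Lamp1 was 2.67 times Lamp2.

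**Figure D3:**
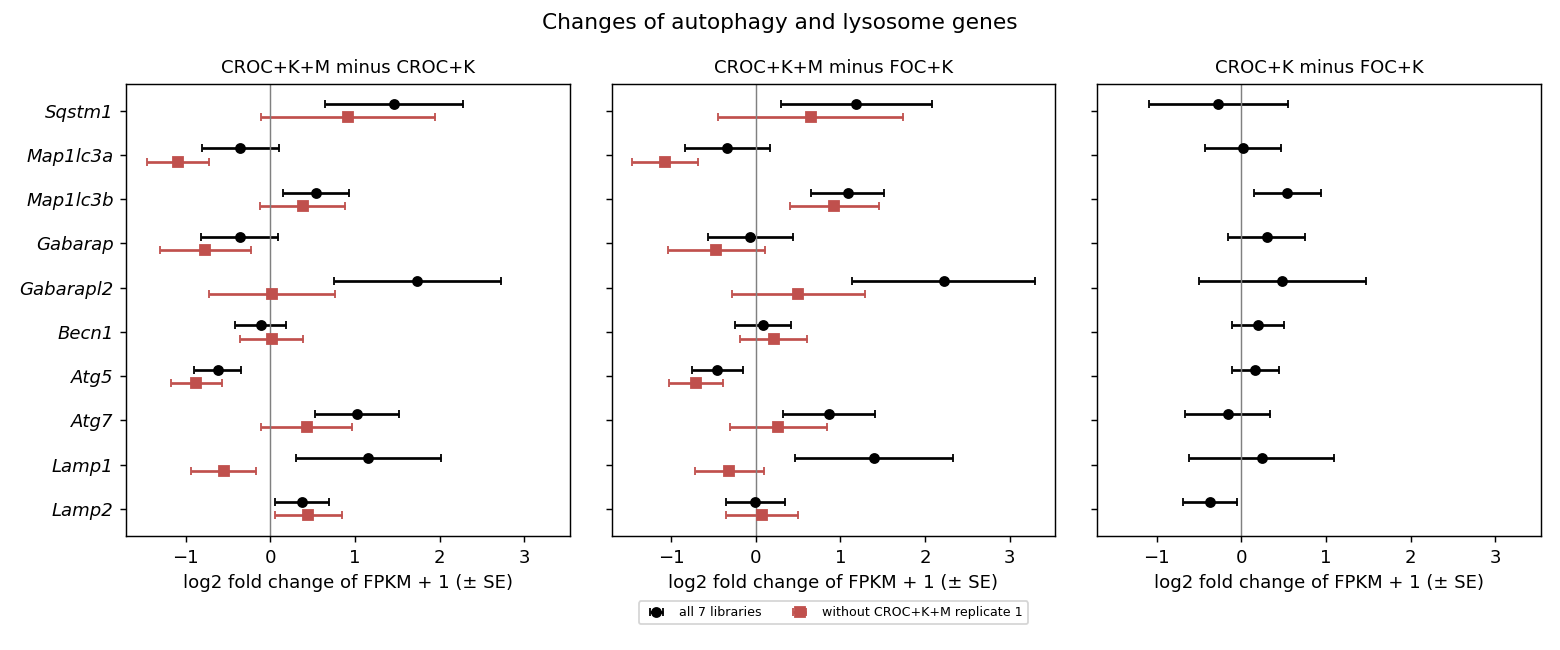
Log2 fold change of FPKM + 1 with its standard error for each gene in CROC+K+M minus CROC+K, CROC+K+M minus FOC+K and CROC+K minus FOC+K; circles use all 7 libraries, squares leave out CROC+K+M replicate 1. For Gabarapl2 the squares lie at 0.02 and 0.50 and for Lamp1 at -0.55 and -0.31, where the circles of both lie between 1.16 and 2.22, while those of Atg5 and Map1lc3a lie further below 0.

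By groups that did not overlap, CROC+K+M lay above CROC+K for Sqstm1 and Map1lc3b and below it for Atg5, 3 of 10 genes beside 23.4% of all genes tested (12.3% above and 11.2% below). Against FOC+K it lay above for Sqstm1, Map1lc3b and Atg7 and below for Atg5, 4 of 10 beside 41% of all genes (21.3% above and 19.8% below). In the vitrification comparison no gene of the 10 was free of overlap, beside 19.1% of all genes. The first pair of shares is thus close to that of all genes. The median log2 change of the 10 genes was 0.45 in the melatonin comparison, 0.47 in the combined comparison and 0.18 in the vitrification comparison, where all tested genes had medians of 0.06, 0.04 and -0.03. The medians of the melatonin and combined comparisons were 0.02 and 0.14 without CROC+K+M replicate 1, beside 0.03 and 0.02 for all genes.

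The wider pathway was read from 9 further lists with 157 genes, of which 142 were tested. In all 3 comparisons none of them passed in limma, and at an unadjusted p under 0.05 there were 10 in the melatonin comparison (8 higher and 2 lower), 7 in the combined comparison (all higher) and 1 in the vitrification comparison (higher). These are 7.04%, 4.93% and 0.704% of the listed genes, beside 10.4%, 6.46% and 2.19% of all genes. When CROC+K+M replicate 1 was left out, most were lower instead, with 9 in the melatonin comparison (3 higher and 6 lower; 6.34% beside 8.38%) and 3 in the combined comparison (all lower; 2.11% beside 5.15%). Positive log2 changes in the melatonin comparison were found for 94 of the 142 (66.2%, beside 54.1% of all genes tested), with a median of 0.25. Without CROC+K+M replicate 1 it was 71 of 142 (50%, beside 52.3%), with a median of -0.0020. In the combined comparison 95 of 142 were positive (66.9%, beside 52.9%), and 74 of 142 without that library (52.1%, beside 51.3%).

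Of the 9 lists, those of the lysosomal interior, membrane and proton pump had the highest medians in CROC+K+M replicate 1. Relative to each gene's mean over the other 6 libraries, that library had a median difference of 0.98 for 10 lysosomal membrane genes, 0.89 for 38 genes of the lysosomal lumen and 0.83 for 18 genes of the v-ATPase, the proton pump that acidifies the lysosome, where the median of all genes was 0.0041. The trophectoderm markers were high in the same library, and their part in these medians was not tested. In CROC+K+M replicate 2 these medians were -0.12, -0.04 and -0.01. The autophagy lists were above 0 in CROC+K+M replicate 1 too, with medians of 0.69 for the 10 genes, 0.53 for conjugation, 0.39 for initiation and 0.35 for membrane supply. For fusion of autophagosome and lysosome (13 genes) its median was -0.17, and for cargo receptors (11 genes) and regulators of lysosome signalling (20 genes) it was 0.14 each.

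**Figure D4:**
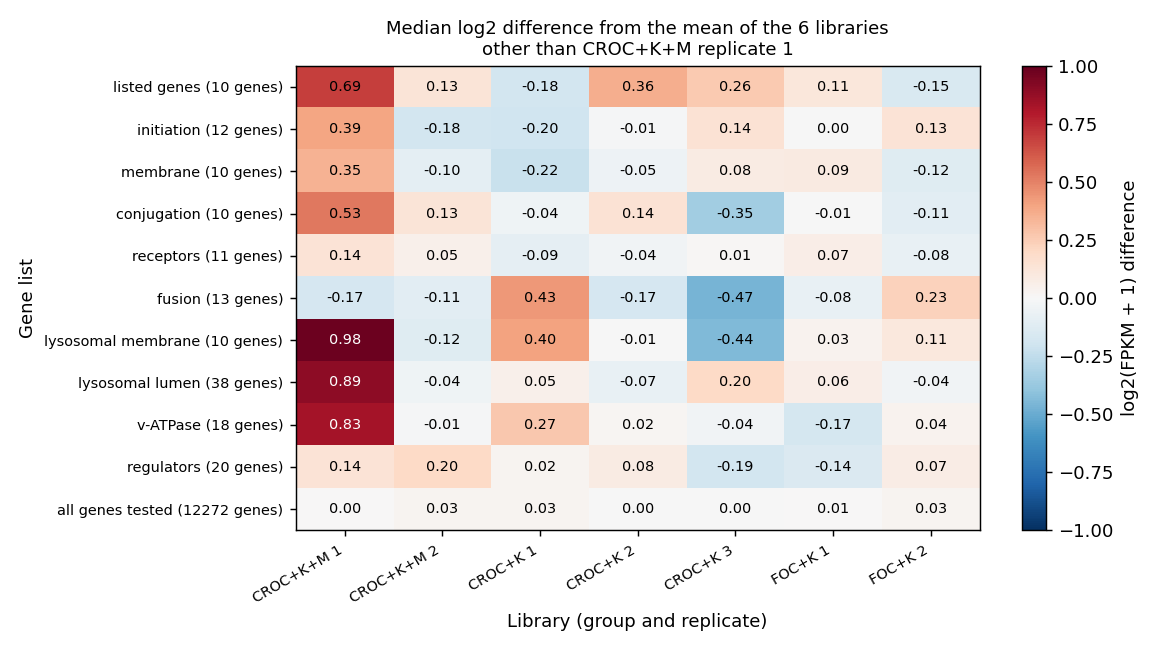
Median log2(FPKM + 1) difference of each gene list from the gene's mean over the 6 libraries other than CROC+K+M replicate 1, with libraries across and lists down; numbers in the cells are the medians. CROC+K+M replicate 1 is highest for the 3 lysosomal lists, from 0.83 to 0.98, and CROC+K+M replicate 2 lies between -0.12 and -0.01 there.

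Named by the smallest unadjusted p of its list, Psap, the gene of the saposin precursor that activates lysosomal lipid enzymes, was at 131 and 7.81 FPKM in CROC+K+M, at 3.23, 1.53 and 2.31 in CROC+K, and at 6.30 and 5.81 in FOC+K. Its log2 change in the melatonin comparison was 3.37 ± 0.97 (SE, limma, adjusted p = 0.408), or 1.42 without CROC+K+M replicate 1. Both CROC+K+M libraries lay above the other 5, the second by little over FOC+K. Of all genes tested, 12.3% lay above CROC+K in this way and 21.3% above FOC+K. Arsb, the gene of lysosomal arylsulfatase B and the other one named from this list, was at 0.451 and 0.609 FPKM in CROC+K+M, at 2.14, 1.22 and 2.55 in CROC+K, and at 1.96 and 1.38 in FOC+K. Its log2 change in the melatonin comparison was -0.93 ± 0.37 (SE, adjusted p = 0.455 in limma), or -0.86 without replicate 1. Of 38 lumen genes tested, 25 had a positive log2 change in the melatonin comparison, beside 54.1% of all genes. Without replicate 1 it was 18 of 38, beside 52.3%. Ctsa, the protective protein cathepsin A, was at 64.4 and 44.4 FPKM in CROC+K+M against 16.1 and 20.5 in FOC+K, with 11.2, 39.9 and 23.5 in CROC+K, a log2 change in the combined comparison of 1.51 ± 0.55 (SE, adjusted p = 0.755 in limma), or 1.24 without replicate 1.

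Among the v-ATPase genes 15 of 18 had a positive log2 change in the melatonin comparison, beside 54.1% of all genes. Without replicate 1 it was 9 of 18, beside 52.3%. The lowest change of the list was -1.89, or -3.99 without replicate 1. Smallest in p in this comparison were Atp6ap2 (1.20 ± 0.58 SE, or 0.45 without replicate 1) and Atp6v1a (0.82 ± 0.41 SE, or 0.33). The next 2 genes are named from the combined comparison. Atp6v0e, a subunit of its membrane sector, was at 1663 and 1011 FPKM in CROC+K+M against 688 and 510.1 in FOC+K (log2 change 1.13 ± 0.39 SE, limma, adjusted p = 0.736, or 0.77 without replicate 1). In CROC+K it was at 582, 920.2 and 929, all below both CROC+K+M libraries, as for 12.3% of all genes tested. Atp6v1f, a subunit of the catalytic sector, had a change of 1.60 ± 0.56, or 0.68 without replicate 1, at 983 and 276 FPKM in CROC+K+M against 162 and 181 in FOC+K. In CROC+K it was at 203, 306 and 305, so that CROC+K+M replicate 2 lay inside the CROC+K range.

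Rragd, which encodes a Rag GTPase that recruits the kinase mTORC1 to the lysosome, differed alike in both melatonin libraries. It was at 8.33 and 7.12 FPKM in CROC+K+M, at 2.58, 0.609 and 1.81 in CROC+K, and at 1.34 and 2.77 in FOC+K. The log2 change was 1.78 ± 0.45 (SE) against CROC+K (limma, unadjusted p = 0.00446, adjusted p = 0.408) and 1.55 ± 0.49 against FOC+K (adjusted p = 0.736). Leaving out CROC+K+M replicate 1, these were 1.68 and 1.45. Rab7, the GTPase of late endosomes and lysosomes, was at 184 and 197 FPKM in CROC+K+M, against 386, 288 and 282 in CROC+K and 285 and 307 in FOC+K. Its change was -0.73 ± 0.26 (SE) against CROC+K (adjusted p = 0.427 in limma), or -0.67 without replicate 1. Neither passed, and neither overlapped between CROC+K+M and the other 5 libraries. Of all genes tested, 23.4% did not overlap between CROC+K+M and CROC+K, and 41% between CROC+K+M and FOC+K. The share against all 5 at once was not computed. Vps16, a subunit of the HOPS tethering complex and the other gene named from the fusion list, ran the other way in the melatonin comparison. It was at 3.15 and 6.88 FPKM in CROC+K+M, at 1.59, 2.03 and 0.597 in CROC+K, and at 2.22 and 3.86 in FOC+K, a log2 change of 1.30 ± 0.46 (SE, adjusted p = 0.427 in limma), or 1.76 without replicate 1.

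Of the conjugation genes, 8 of 10 had a positive log2 change in the melatonin comparison and 6 of 10 without replicate 1, and Atg16l2 had the smallest p (1.67 ± 0.69 SE, limma, adjusted p = 0.465, or 0.69 without replicate 1). Its FPKM was 8.05 and 1.32 in CROC+K+M against 1.68, 0 and 0.113 in CROC+K. Of the initiation genes, 5 of 12 were positive with a median of -0.11, or 4 of 12 and -0.10 without replicate 1. The membrane supply genes had 7 of 10 and a median of 0.29, but 5 of 10 and -0.09 without replicate 1, which turned the sign of the median. For receptors it was 7 of 11 and 0.04, or 6 of 11 and 0.02 without replicate 1. Over all genes tested 54.1% were positive, or 52.3% without that library. Uvrag, a partner of Beclin 1, had a log2 change of -0.55 ± 0.30 (SE, adjusted p = 0.554 in limma), or -0.31 without replicate 1. Atg2a, a lipid transfer gene, had one of 0.74 ± 0.35 (SE, adjusted p = 0.506 in limma), or 0.93 without it. Bnip3, a mitophagy receptor gene, was at 452 and 348 FPKM in CROC+K+M against 281, 252 and 289 in CROC+K, a log2 change of 0.53 ± 0.28 (SE, adjusted p = 0.533 in limma), or 0.34 without replicate 1.

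Between CROC+K and FOC+K the wider lists were close to even, with 71 of 142 genes (50%) higher in CROC+K beside 47.3% of all genes, and a median of -0.0024. In the limma fit of all 7 libraries, the 1 gene at an unadjusted p under 0.05 was Lamtor2. It encodes part of the Ragulator complex that anchors Rag GTPases at the lysosome. In the fit without CROC+K+M replicate 1, which changes the shared estimate of the spread, Lamtor2 was not below that p. It was at 886, 1943 and 1587 FPKM in CROC+K replicates 1 to 3 against 823 and 706 in FOC+K, a log2 change of 0.87 ± 0.37 (SE, unadjusted p = 0.0488, adjusted p = 0.9996 in limma). CROC+K replicate 1 lay near the FOC+K libraries. In Rn45s it was on the side of FOC+K as well, and above both. Rn45s was at 224 and 175 FPKM in CROC+K+M, at 2114, 266 and 237 in CROC+K replicates 1 to 3, and at 1183 and 1047 in FOC+K. Split by Rn45s, both FOC+K libraries and CROC+K replicate 1 were high and the others low. With this split as a term, the vitrification comparison amounts to CROC+K replicate 1 alone against FOC+K. There the changes of Map1lc3b, Gabarap and Gabarapl2 were -0.08, -0.43 and -0.61.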

How the data were processed

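The authors' deposited table holds 1 FPKM value per gene and library. Per the submitters' processing notes, the tools were Cuffnorm, Cufflinks 2.2.1, STAR 2.5.2b and R 3.3.2, with mouse build mm9. For annotation, scaling between libraries and strand setting, the entry is: not given in the sources used here. Library preparation used SMARTer cDNA and a ScriptSeq v2 kit, per the labels' protocols, from RNA with an integrity number above 7.0.

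FPKM values were used as log2(FPKM + 1), which understates changes of low genes. The 1274 rows of small RNA genes and the ribosomal RNA precursor were left out. limma 3.58.1 (R 4.3.3) with an intensity trend was fitted to the 12272 genes with at least 1 FPKM in 2 or more libraries, in 1 fit of 7 libraries whose only term was the group; tests were two-sided and p-values adjusted by Benjamini-Hochberg over all genes of a comparison. The code was tested on simulated data. The genes and lists were chosen with earlier results of these data known. All 10 genes are named, and of each further list the 2 genes with the smallest unadjusted p and a mean of at least 1 FPKM per comparison, of which the text prints a part. Shared 50-base stretches and overlaps come from GENCODE M21 (GRCm38), promoters from RefSeq (GRCm38.p6). Figures used Python 3.11.15 and matplotlib 3.10.9.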

Additional observations from a re-analysis of the deposited data

How the results depend on the processing

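With all 7 libraries, 0 of the 10 genes and 0 of all genes passed in limma with a pseudocount of 0.1, without the filter, with equal FPKM sums, after quantile normalization, with the replicate block or with the Rn45s split as a term. Leaving out 1 library at a time gave 0 calls over all genes in the vitrification comparison, 0 to 658 in the melatonin comparison and 0 to 546 in the combined comparison. The calls came without CROC+K+M replicate 2, where replicate 1 alone stands for its group, and Gabarapl2 and Lamp1 were among them in both comparisons. With the replicate block the log2 changes that turned sign were Sqstm1 0.61, Map1lc3a -0.041, Becn1 -0.019 in the vitrification comparison, and Becn1 0.10 in the melatonin comparison. Only CROC+K has a replicate 3, so the block gave the same changes as leaving out CROC+K replicate 3 and is no separate check. With the Rn45s library split as a term the log2 changes that turned sign were Sqstm1 0.62, Map1lc3a -0.26, Map1lc3b -0.080, Gabarap -0.43, Gabarapl2 -0.61, Becn1 -0.14, Atg7 0.29 in the vitrification comparison, and Becn1 -0.42 in the combined comparison. That vitrification comparison is CROC+K replicate 1 alone against FOC+K, and the melatonin one gave the changes found without CROC+K replicate 1. The combined one is then shifted by the difference within CROC+K. With equal FPKM sums the log2 changes that turned sign were Map1lc3a -0.32, Gabarap -0.042, Becn1 -0.14, Atg5 -0.17, Lamp1 -0.082 in the vitrification comparison, and Becn1 -0.50 in the combined comparison. After quantile normalization the log2 changes that turned sign were Map1lc3a -0.11, Atg5 -0.0082, Atg7 0.012 in the vitrification comparison, and Becn1 -0.17 in the combined comparison. The cause was not tested. In the vitrification comparison, changes that turned sign with 1 library left out ranged over Sqstm1 -0.71 to 0.61, Map1lc3a -0.28 to 0.32, Gabarap -0.10 to 0.70, Gabarapl2 -0.083 to 1.05, Becn1 -0.019 to 0.37, Atg7 -0.39 to 0.16. In the melatonin comparison, changes that turned sign with 1 library left out ranged over Map1lc3a -1.09 to 0.38, Gabarap -0.77 to 0.040, Becn1 -0.28 to 0.10, Lamp1 -0.55 to 2.87. In the combined comparison, changes that turned sign with 1 library left out ranged over Map1lc3a -1.07 to 0.40, Gabarap -0.47 to 0.34, Becn1 -0.044 to 0.21, Lamp1 -0.31 to 3.11, Lamp2 -0.35 to 0.34. The other changes kept their sign but moved, in the vitrification comparison Atg5 0.067 to 0.27, Lamp1 0.13 to 0.45 and Lamp2 -0.72 to -0.024, in the melatonin comparison Sqstm1 0.58 to 2.00, Gabarapl2 0.02 to 3.45, Atg7 0.43 to 1.62 and Lamp2 0.26 to 0.54, and in the combined comparison Sqstm1 0.65 to 1.73, Map1lc3b 0.73 to 1.44, Gabarapl2 0.50 to 3.94 and Atg7 0.27 to 1.46. Equal FPKM sums moved the median of all genes to -0.30 in the vitrification comparison, -0.14 in the melatonin comparison and -0.44 in the combined comparison, and changes are relative to it. Replicate numbers recur between groups, and libraries of equal number deviated from their group means with r between -0.457 and 0.03. In a group of 2 the deviations mirror each other, so these r cannot tell whether equal numbers stand for a shared batch. The block left 97, 706 and 543 genes at an unadjusted p under 0.05 in the vitrification comparison, the melatonin comparison and the combined comparison. The fragments behind each FPKM are not known, so no counting error is given, and with 2 or 3 libraries a group a p above the threshold does not show that levels were equal.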
